A study of Mus musculus with 18 samples.

Results

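The PYHIN genes form a tandem cluster on distal chromosome 1 of the mouse, and 10 of them are described here in bone marrow-derived macrophages (BMDMs): Aim2, Ifi202b, Ifi203, Ifi204, Ifi205, Mnda, Mndal, Pyhin1, Pydc3 and Pydc4. They were chosen by name, as the rows of the deposited table that carry these symbols on chromosome 1, and make up 10 of its 20615 genes. The table holds 4 more rows of the same family, Gm4955 (Ifi206 in newer annotation), BC094916 (Ifi214 by position), AI607873 (Ifi207) and the pseudogene Gm16340 (Ifi203-ps), which are drawn on where reads could be shared. In newer annotation Pyhin1 is Ifi209, Mnda is Ifi211, Pydc3 is Ifi208 and Pydc4 is Ifi213. All 10 members passed the filter on low counts, Ifi202b only through the samples of the strain in which it was high.

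PYHIN proteins typically join a pyrin domain, which binds other pyrin domains, to a HIN domain, which binds DNA. AIM2 is the best known: on double-stranded DNA in the cytosol it recruits the adaptor ASC and caspase-1 to form an inflammasome. The family is induced by interferons and differs widely between inbred mouse strains in gene content and expression. The protein of Ifi202b has HIN domains but no pyrin domain and is known to restrain AIM2. Its gene is a candidate for lupus susceptibility in mice.

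RNA was sequenced from 18 BMDM samples, 3 in each of 6 groups: BMDMs of 2 strains, untreated (control), given apoptotic cells (ACs) or given CpG. B6 stands for C57BL/6 mice, and SjSS for C57BL/6.NOD-Aec1Aec2 mice, a model of Sjögren's syndrome in which the Aec1 and Aec2 intervals of NOD mice were placed on a B6 background. Mice were female and 7 to 12 weeks old, and marrow cells of both strains were grown to macrophages by day 7 with L929 supernatant as the source of M-CSF, which was also present, at a lower share, during treatment. Control BMDMs were untreated, CpG, an oligonucleotide ligand of TLR9, was given at 1 µM for 6 h, and ACs, thymocytes killed with dexamethasone, were given at 5 per BMDM for 2 h and washed off. The incubation after the wash was 3 h by the labels, whereas the methods give a longer time, and control, CpG and AC samples differ in handling as well as in stimulus. The strain of the thymocytes in each sample and the markers that bound the congenic intervals are not given in the sources used here, so that a strain difference cannot be assigned to one interval. The figure legends give 3 mice per condition. The labels tie no sample to a mouse, nor do they say whether samples of different treatments share one, so p-values measure the spread between the samples as deposited.

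The totals ran from 30688336 to 57139662 estimated counts per sample with a median of 47912525, and no library was a copy of another. The macrophage markers summed to between 15105 and 23748 CPM (counts scaled to a common library total) in all 18 samples. The 12 thymocyte markers, of which 2 passed the filter on low counts, summed to 4.41 to 5.08 CPM in AC treated B6 and to 13.5 to 18.1 CPM in AC treated SjSS BMDMs, against 7.91 to 9.82 and 10.1 to 11.5 CPM in the controls. Most of that sum was Cd4, at 14.0 ± 2.74 CPM (SD, n = 3) in AC treated SjSS BMDMs, while Rag1 was at 0.0231 ± 0.00247 and Themis at 0. Lck was at 0.155 ± 0.072 CPM (21 counts over the group) in control SjSS and 0.651 ± 0.0964 CPM (86 counts) in AC treated SjSS BMDMs. In B6, counts over the group went from control to AC treated samples from 0 to 24 for Rag1 and from 0 to 18 for Dntt. Themis went from 1 to 10, Cd8a from 1 to 26, Cd8b1 from 2 to 14 and Bcl11b from 6 to 20. Lck went from 21 to 39, Cd3g from 4 to 8, Trac from 0 to 4 and Cd3d from 5 to 6. Cd3e and Cd4 went the other way, from 9 to 6 and from 1429 to 529. CpG treated B6 BMDMs, which were given no thymocytes, had 19 counts of Cd8a, 17 of Trac and 29 of Lck, and 0 of Rag1, Dntt and Themis. Markers of B cells summed to 16.0 to 49.9 CPM and those of neutrophils to 2.31 to 12.8 CPM over the 18 samples. The B cell sum was 16.0 to 18.7 CPM in AC treated B6 and 39.1 to 43.7 CPM in AC treated SjSS BMDMs. In the controls it was 26.0 to 33.4 and 37.9 to 49.9 CPM. The neutrophil sum was 11.2 to 12.8 CPM in CpG treated B6 and 5.61 to 5.96 CPM in CpG treated SjSS BMDMs, against 3.39 to 5.04 and 2.5 to 2.98 CPM in the controls. The dendritic cell markers summed to 2.63 to 3.48 CPM in AC treated SjSS BMDMs and to at most 2.16 CPM elsewhere. Most of that sum was Xcr1, at 2.13 ± 0.47 CPM in AC treated against 0.279 ± 0.085 CPM in control SjSS BMDMs. Clec9a went the other way, from 0.536 ± 0.0803 CPM in control to 0.263 ± 0.0787 CPM with ACs. Zbtb46 was at 0.353 ± 0.121 and 0.515 ± 0.157 CPM, and with ACs Flt3 was at 0.079 and Siglech at 0.0403 CPM. The part of these other cells in the results below was not tested. A change in RNA per cell and a change in the share of cells of one kind cannot be told apart in bulk RNA.

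The 10 genes lie within 681 kb of mm10, from Aim2 at chr1:173350879-173466040 to Ifi205 at chr1:174011998-174031810. From Aim2 outward the members come in the order Pydc4 (chr1:173566284-173599274), Pyhin1 (chr1:173630917-173647928), Pydc3 (chr1:173673675-173698392), Ifi204 (chr1:173747293-173766943), Mndal (chr1:173857220-173942491), Mnda (chr1:173896345-173913046), Ifi203 (chr1:173920407-173942672), Ifi202b (chr1:173962568-173982744) and Ifi205. Aim2, Pyhin1 and Pydc3 are on the plus strand and the other members on the minus strand. The annotated span of Mndal covers that of Mnda and overlaps that of Ifi203 on the same strand.

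Several members share stretches of sequence, which bears on the values below. Windows as long as a read were taken along the annotated transcripts of each gene and looked for in all other genes. None of the windows of Aim2 or Ifi202b occurred elsewhere, and their estimated counts were whole numbers in all 18 samples (tolerance 0.05). Mnda stood at the other end, with 56.7% of its windows shared, 37.2% with Ifi205 and 19.5% with Ifi204. The share was 16.6% for Pyhin1, all of it with BC094916, 15% for Ifi205, 10.6% for Ifi204, 6.25% for Mndal, 5.75% for Pydc3, 3.16% for Pydc4 and 2.79% for Ifi203. These 8 genes had fractional counts in 13 to 16 of the 18 samples, as arise where the authors' software splits reads between genes. The values of Aim2 and Ifi202b show no such splitting, while the division of reads between Mnda and its relatives is uncertain.

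The promoters are shown because most, though not all, members moved in the same direction in most comparisons. Whether promoter sequence bears on those changes was not tested, and the members are related copies rather than independent genes. RefSeq sequence upstream of annotated starts (GRCm38.p6, the C57BL/6J reference and so not the NOD sequence) was found for 9 of the 10 members, in 11 windows of 250 bases. Ifi204 was not matched. GAAA, any 2 bases and GAAA again, the letters at the core of the interferon-stimulated response element, were searched on both strands and stood in 7 of the 11 windows, from 6 members, while 2.98% of all 32851 promoter windows of that length held it. In these 6 members the match on the gene's own strand began shortly before the annotated start, by 35 bases in Ifi203, 36 in Mndal, 37 in Mnda, 58 in Pydc3, 73 in Pydc4 and 134 in Ifi205. The stretches below give 30 bases around each match, in the gene's own direction, with the match in capitals.
Pydc4 (chr1:173599326-173599355, minus strand): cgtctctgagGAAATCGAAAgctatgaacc
Pydc3 (chr1:173673597-173673626, plus strand): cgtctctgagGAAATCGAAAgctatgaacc
Mndal (chr1:173880204-173880233, minus strand): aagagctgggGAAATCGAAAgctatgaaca
Ifi203 (chr1:173942508-173942537, minus strand): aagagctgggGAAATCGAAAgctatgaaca
Mnda (chr1:173913064-173913093, minus strand): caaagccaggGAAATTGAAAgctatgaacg
Ifi205 (chr1:174031870-174031899, minus strand): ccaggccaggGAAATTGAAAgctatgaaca
The stretches of Pydc4 and Pydc3 were identical over their 30 bases, as were those of Mndal and Ifi203. Ifi203 has a second annotated start further upstream, whose window held no match, so its stretch lies within the longer gene model. That of Mndal likewise lies inside the span given for the gene, and its distance holds for 1 of its annotated starts. Mnda and Ifi205 shared the form GAAATTGAAA, and the other 4 had GAAATCGAAA. Aim2, Pyhin1 and Ifi202b had no match in their windows, which says nothing of other positions. The only window of Aim2, chr1:173420354-173420603, lies inside the span given for that gene, so the sequence before that span was not searched. The window of Ifi202b is printed because this member set the strains apart most, and it was the only one among the members with TTCNNNGAA, the letters of a gamma-activated site, which 7.02% of all promoters held. That match is in capitals, and motifs other than these and the letters of the interferon-stimulated response element were not searched for.
Ifi202b (chr1:173982845-173983094, minus strand): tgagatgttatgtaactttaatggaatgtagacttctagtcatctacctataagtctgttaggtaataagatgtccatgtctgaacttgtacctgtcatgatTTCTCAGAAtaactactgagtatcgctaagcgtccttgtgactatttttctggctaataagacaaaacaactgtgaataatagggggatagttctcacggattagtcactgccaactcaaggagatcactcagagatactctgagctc
A match is a run of letters, not a measured binding site.

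Levels of the 10 members summed to 346 ± 20.3 CPM (SD, n = 3) in control B6 and 341 ± 32.1 CPM in control SjSS BMDMs, so that the strains began at about the same total. After ACs the sum was 716 ± 93.9 CPM in B6 and 3190 ± 76.2 CPM in SjSS BMDMs, which is 2.07 and 9.34 times the control. After CpG the order was turned around, with 1198 ± 191 CPM in B6 and 607 ± 154 CPM in SjSS BMDMs, 3.46 and 1.78 times the control. Ifi202b supplied 31.7% of the sum in control SjSS BMDMs and almost none of it in B6. Without it, the other 9 members summed to 0.673 of the B6 level in control, 3.42 times that level after ACs and 0.351 of it after CpG. With ACs, 0.32% of all counts in SjSS BMDMs fell on the 10 members.

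**Figure D1:**
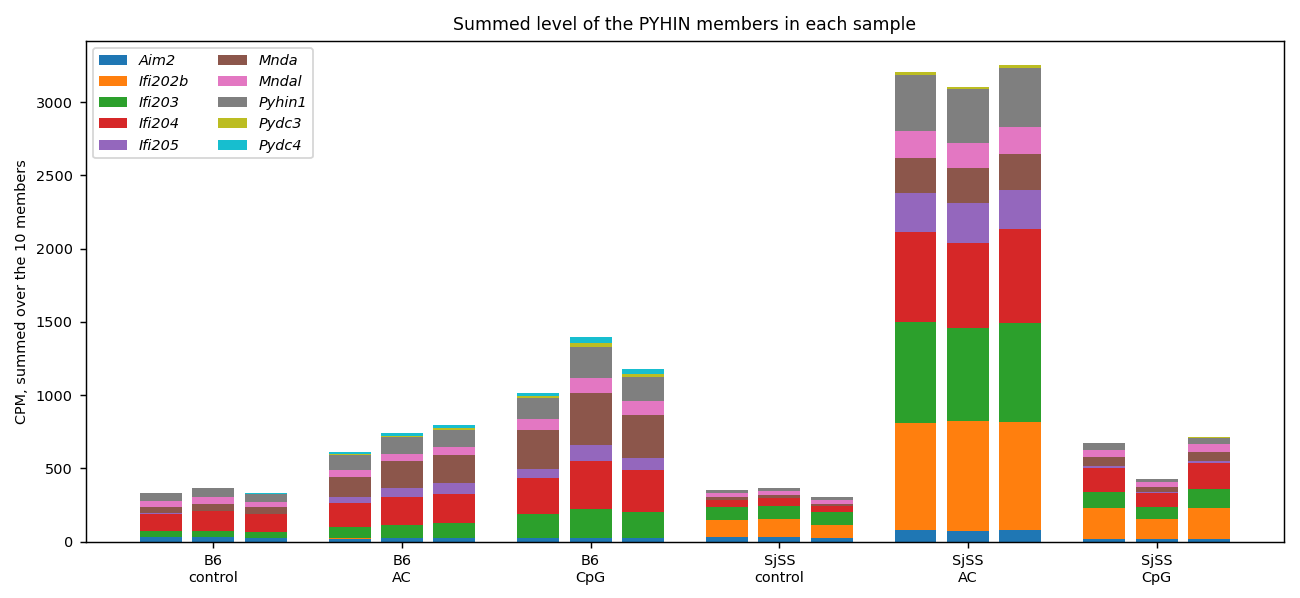
Bars give the level of each member in CPM, stacked to their sum, for each of the 18 samples, with 3 bars per group. The 3 AC treated SjSS samples reached 3107 to 3256 CPM, and the next highest group, CpG treated B6 BMDMs, 1015 to 1397 CPM.

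Per kilobase of exon, the order of the members changed with strain and treatment. In control B6 BMDMs the level per length was highest for Ifi204 with 35.6 ± 2.39 CPM per kb, then Mnda with 25.1 ± 1.34 and Pyhin1 with 15.5 ± 1.57. Mndal at 11.3 ± 0.476, Aim2 at 8.31 ± 0.896 and Ifi203 at 6.24 ± 0.204 followed in that order, each apart from its neighbours by more than their SDs. On the length of the longest transcript, Mndal came before Pyhin1 (20.3 and 16.0) and Ifi203 before Aim2 (11.1 and 10.2). In AC treated SjSS BMDMs Ifi202b was first at 437 CPM per kb, followed by Ifi204 at 171, Mnda at 135 and Pyhin1 at 109. Ifi203 came next at 99.6 ± 4.56 CPM per kb, close to Pyhin1 with its SD of 5.02, but on the length of its longest transcript it was at 178 and so above Mnda. Pydc3 and Pydc4 were lowest in that group, at 3.24 and 0.383 CPM per kb.

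**Figure D2:**
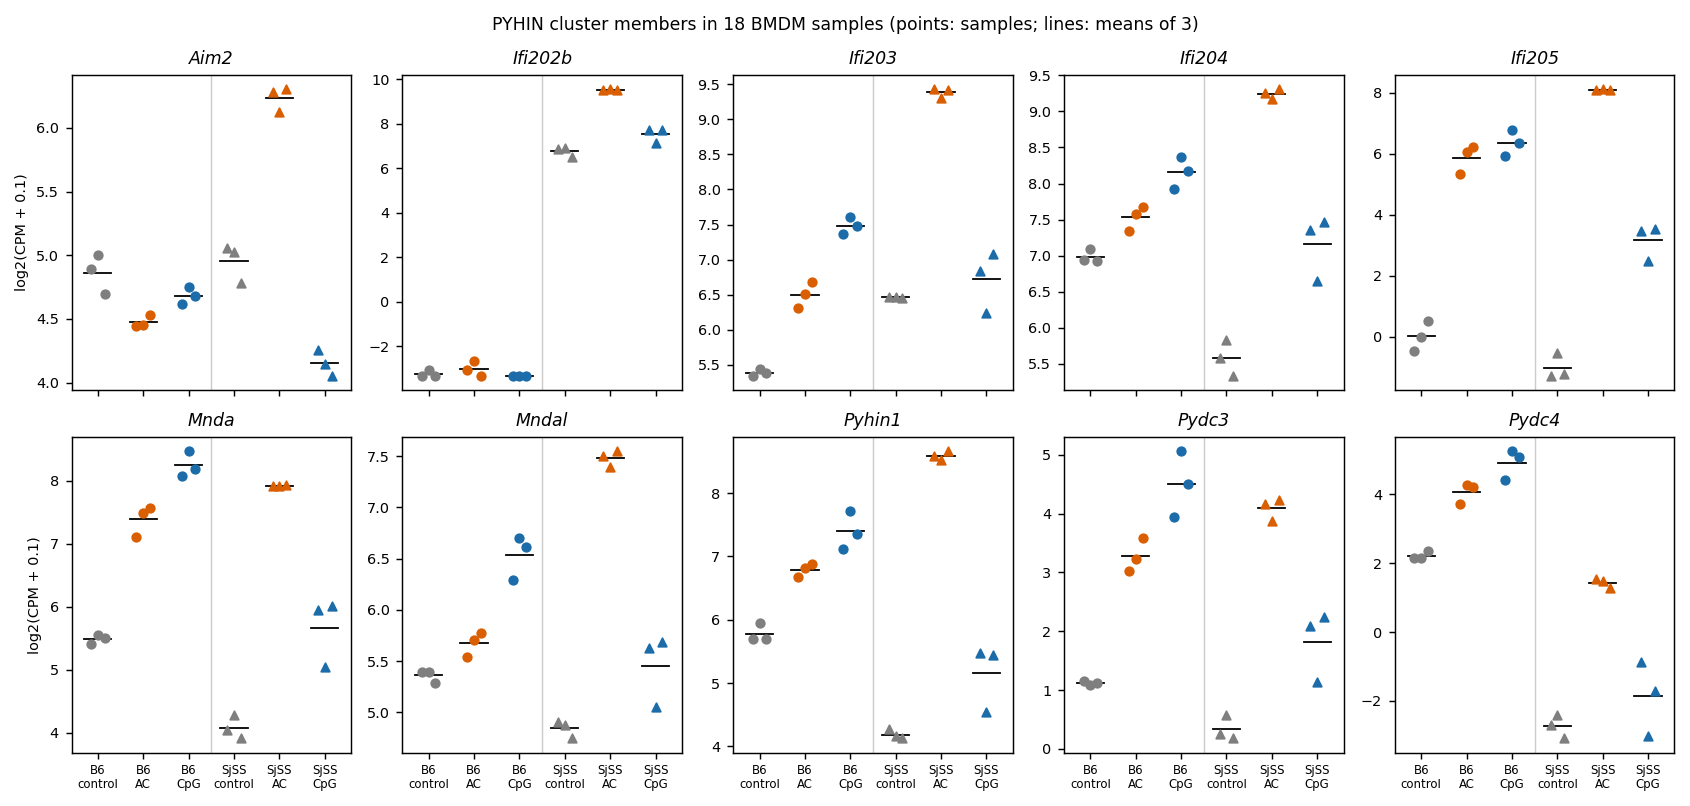
Each panel plots 1 member in the 18 samples on a log2(CPM + 0.1) scale, with circles for B6 and triangles for SjSS BMDMs and a line at the mean of 3 samples. Grey is control, orange AC and blue CpG. The AC treated SjSS samples of all 10 members lie above the SjSS controls, as did those of 31.5% of all tested genes. Mnda, Pydc3 and Pydc4 have their highest points in CpG treated B6 samples, and the B6 points of Ifi202b lie at the bottom.

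Aim2, the DNA sensor of the inflammasome, moved in opposite directions with ACs in B6 and SjSS BMDMs. Its levels in control BMDMs were 29.5, 32.0 and 25.8 CPM in B6 and 33.2, 32.4 and 27.4 CPM in SjSS, and the strains overlapped. AC treated samples were at 21.7, 21.8 and 23.0 CPM in B6 and at 77.6, 69.7 and 79.1 CPM in SjSS. The AC treated samples were below all controls in B6 and above all controls in SjSS. The log2 fold change was -0.39 ± 0.08 (SE; edgeR adjusted p = 0.00111) in B6, short of the fold required for a call, and 1.28 ± 0.08 (edgeR adjusted p = 1.27e-10) in SjSS, just under it. The difference between those responses was 1.68 ± 0.12 (edgeR adjusted p = 2.78e-09). To be called, a gene needed a log2 fold change beyond 1.3 in either direction at an adjusted p below 0.05, and the AC response of Aim2 in SjSS passed 1.3 in 3 of the fits that left out 1 sample, without control replicate 1 (1.34) or 2 (1.32) or AC replicate 2 (1.34), and with DESeq2 or its size factors (1.31 in both). After CpG it was at 24.5, 26.8 and 25.5 CPM in B6 and at 19.0, 17.6 and 16.5 CPM in SjSS. All CpG treated SjSS samples were below all SjSS controls, by a log2 fold change of -0.81 ± 0.09 (edgeR adjusted p = 2.03e-07), whereas the B6 samples overlapped their controls (-0.18 ± 0.08, edgeR adjusted p = 0.0696).

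Ifi202b, which encodes the HIN protein without a pyrin domain, was nearly absent in B6 and abundant in SjSS BMDMs. Over the 3 samples of a group, B6 BMDMs gave 1 count in control, 4 after ACs and 0 after CpG, while SjSS BMDMs gave 15317, 97090 and 24173. No B6 sample was above 0.0568 CPM. In CPM, the SjSS controls were at 117, 120 and 89.4, the AC treated samples at 732, 756 and 736 and the CpG treated samples at 208, 140 and 211. The ratio of SjSS to B6 was 17822 in control (95% exact conditional binomial interval 3198 to 703989) and 27473 after ACs (10729 to 100831). After CpG it was at least 8337-fold, against a floor of 3 counts over the B6 group. These intervals cover counting error only. Within SjSS, AC treated samples lay above all controls by a log2 fold change of 2.77 ± 0.14 (edgeR adjusted p = 1.73e-11), and CpG treated samples by 0.78 ± 0.13 (edgeR adjusted p = 8.08e-05), which was under the fold for a call. No fold is given for a response in B6, where the counts were at or near 0.

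Ifi204, a mouse relative of human IFI16 that binds DNA, was the most abundant member per length in control B6 BMDMs. It was at 122, 136 and 121 CPM there and at 47.8, 57 and 40.2 CPM in control SjSS BMDMs. AC treated samples were at 163, 191 and 203 CPM in B6 and at 612, 577 and 636 CPM in SjSS. CpG treated samples were at 244, 329 and 288 CPM in B6 and at 163, 100.5 and 177 CPM in SjSS. All treated samples of a strain were above its controls, and the strain difference was -1.39 ± 0.16 in control (edgeR adjusted p = 9.72e-06) but 1.71 ± 0.16 after ACs (edgeR adjusted p = 5.49e-08). The control difference fell short of the required fold when control SjSS replicate 3 was left out (-1.28). The AC response was larger in SjSS by 3.11 ± 0.23 (edgeR adjusted p = 4.84e-09), while the CpG response, 1.18 ± 0.16 in B6 and 1.61 ± 0.17 in SjSS, differed by 0.43 ± 0.23, which did not pass the test (edgeR adjusted p = 0.305).

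Ifi203 was, beside Ifi202b, the member higher in control SjSS than in control B6 BMDMs. It was at 40.6, 43.3 and 41.5 CPM in B6 and at 88.6, 88.6 and 87.6 CPM in SjSS, 1.08 ± 0.14 apart on the log2 scale (edgeR adjusted p = 2.28e-05, under the fold for a call). With ACs it reached 79.4, 90.8 and 102 CPM in B6 and 691, 633 and 680 CPM in SjSS. With CpG it reached 165, 195 and 178 CPM in B6 but 114, 75.8 and 135 CPM in SjSS, where the samples overlapped the controls. The CpG response was 2.10 ± 0.14 in B6 and 0.30 ± 0.13 in SjSS, and smaller in SjSS by a log2 difference of -1.80 ± 0.19 (edgeR adjusted p = 2.32e-05). For ACs the difference ran the other way, at 1.80 ± 0.19 (edgeR adjusted p = 5.07e-07).

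Ifi205, a HIN-200 gene at the far end of the cluster, went from near absence to high levels. Controls were at 0.624, 0.897 and 1.31 CPM in B6 and at 0.313, 0.592 and 0.326 CPM in SjSS, the latter from 55 counts over the group. AC treated samples were at 40.0, 65.9 and 73.7 CPM in B6 and at 268, 278 and 271 CPM in SjSS. CpG treated samples were at 59.9, 109 and 80.6 CPM in B6 and at 11, 5.48 and 11.4 CPM in SjSS. Every treated sample was above its controls, with log2 fold changes for ACs of 5.99 ± 0.34 in B6 and 9.45 ± 0.39 in SjSS, the highest of the 10 members in both strains. The strain difference was 2.19 ± 0.23 after ACs (edgeR adjusted p = 2.94e-07) and -3.15 ± 0.26 after CpG (edgeR adjusted p = 9.48e-08), with no overlap in either. The CpG response differed between strains by -1.88 ± 0.76, which missed the threshold here (edgeR adjusted p = 0.163) and passed it with DESeq2 (-1.94, adjusted p = 0.00418) and in the edgeR fit with the replicate number as a block (-1.85, adjusted p = 0.048).

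Mnda and Mndal, named after the human myeloid nuclear differentiation antigen, differed in size of response. Mnda was at 42.2, 47.0 and 45.3 CPM in control B6 and 16.3, 19.3 and 15 CPM in control SjSS BMDMs. It was at 138, 179 and 190 CPM after ACs in B6 and at 241, 240 and 243 CPM in SjSS, a strain difference of 0.51 ± 0.17 that was under the fold for a call although the samples did not overlap. After CpG it was at 269, 353 and 291 CPM in B6, its highest level, and at 61.6, 32.9 and 64.0 CPM in SjSS. With 56.7% of its windows held in common, these levels cannot be taken as reads of Mnda alone. Mndal was at 42.1, 42.0 and 39.1 CPM in control B6 and 29.99, 29.3 and 26.8 CPM in control SjSS BMDMs. ACs left it at 46.5, 52.0 and 54.6 CPM in B6, a log2 fold change of 0.31 ± 0.12 (edgeR adjusted p = 0.0539), against 181, 168 and 187 CPM in SjSS (2.64 ± 0.13, edgeR adjusted p = 1.97e-12). After CpG it was at 78.4, 104 and 97.5 CPM in B6 and at 49.5, 33.1 and 51.4 CPM in SjSS. Both genes thus had higher AC treated and lower CpG treated levels in SjSS than in B6 in every sample.

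Pyhin1, a further HIN-200 gene, was lower in SjSS than in B6 BMDMs without treatment and higher after ACs. It was at 51.7, 61.5 and 52.0 CPM in control B6 and 19.1, 17.8 and 17.4 CPM in control SjSS BMDMs. With ACs it was at 102, 113 and 117 CPM in B6 and at 384, 368 and 404 CPM in SjSS. With CpG it was at 139, 210 and 163 CPM in B6 and at 44.5, 23.2 and 43.4 CPM in SjSS. None of these groups overlapped between strains. The AC response was 1.01 ± 0.17 in B6 and 4.41 ± 0.19 in SjSS, and the difference was 3.40 ± 0.25 (edgeR adjusted p = 3.86e-09). BC094916, with which Pyhin1 shares all of its common windows, was higher in SjSS in every group. It was at 0.176 ± 0.0277 CPM in B6 against 2.15 ± 0.281 CPM in SjSS in control, and at 1.21 ± 0.24 against 64.9 ± 1.81 CPM after ACs.

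Pydc3 and Pydc4, genes named for their pyrin domain, had the lowest levels per length in AC treated SjSS BMDMs, as given above. Pydc3 was at 2.13, 2.02 and 2.06 CPM in control B6 and 1.09, 1.39 and 1.03 CPM in control SjSS BMDMs. After ACs it was at 8.02, 9.23 and 12.0 CPM in B6 and 17.8, 14.6 and 18.8 CPM in SjSS, and after CpG at 15.2, 33.3 and 22.6 CPM in B6 and 4.16, 2.10 and 4.61 CPM in SjSS. Its strain difference changed sign with treatment, being 0.81 ± 0.24 after ACs, under the fold for a call, and -2.70 ± 0.26 after CpG. Pydc4 kept 1 direction. It was lower in SjSS in every condition, at 4.34, 4.32 and 5.03 CPM in control B6 against 0.0553, 0.0887 and 0.0181 CPM, or 7 counts over the group, in control SjSS BMDMs. After ACs it was at 13.2, 19.1 and 18.5 CPM in B6 and at 2.82, 2.69 and 2.36 CPM in SjSS, and after CpG at 21.3, 38.0 and 33.8 CPM in B6 and 0.450, 0.0247 and 0.206 CPM in SjSS. The CpG response of Pydc4 in SjSS, 2.19 ± 0.87 (edgeR adjusted p = 0.0415), overlapped its controls and was lost without control SjSS replicate 1 or 3 or CpG treated SjSS replicate 1 or 3, with adjusted p of 0.0843, 0.152, 0.349 and 0.0623.

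The levels of genes that share windows were also added up, a step chosen after the values were seen. Pydc3, Pydc4 and Gm4955 together were at 11.8 ± 0.938 CPM in control B6 and 1.41 ± 0.372 CPM in control SjSS BMDMs. After ACs their sum was still lower in SjSS, 26.0 ± 2.68 against 50.3 ± 9.32 CPM, although Pydc3 by itself was higher. Pyhin1 and BC094916 together kept the pattern of Pyhin1, with 20.2 ± 0.965 against 55.2 ± 5.58 CPM in control and 450 ± 19.0 against 112 ± 8.15 CPM after ACs. The 7 rows from AI607873 to Ifi205 that share windows summed to 474 ± 29.3 CPM in control B6 and 339 ± 24.4 CPM in control SjSS BMDMs. After ACs that sum was 853 ± 92.2 CPM in B6 and 2768 ± 125 CPM in SjSS, and after CpG 1216 ± 169 and 535 ± 136 CPM. AI607873, which is no member and shares 0.731% of its windows, made up 218 ± 16.9 CPM of that sum in control B6 and 797 ± 62.9 CPM in AC treated SjSS BMDMs. Windows shared with Gm18445 and Gm38050 lie outside the sum. Reads were aligned to a genome of B6 origin, and lower expression in SjSS and a poorer match of SjSS reads cannot be told apart.

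How many members passed the test is set out for each comparison beside the share of all 15789 tested genes that did. With ACs, 4 members were called higher in B6, namely Ifi205, Pydc3 (2.23 ± 0.27), Mnda (1.91 ± 0.18) and Pydc4 (1.89 ± 0.22), while 2.43% of all genes were called higher. In SjSS 9 were called higher, all but Aim2, where 7.09% of all genes were. The median log2 fold change of the 9 members other than Ifi202b was 1.12 in B6 and 3.84 in SjSS, with 0.00 and -0.02 over all genes. With CpG, 6 members were called higher in B6: Ifi203, Ifi205 (6.47 ± 0.34), Mnda (2.76 ± 0.18), Pydc3 (3.51 ± 0.27), Pydc4 (2.76 ± 0.23) and Pyhin1 (1.63 ± 0.17). The share of all genes was 5.86%, and the median of the 9 was 2.10 against -0.04 over all genes. In SjSS 5 were called higher, Ifi204, Ifi205 (4.59 ± 0.44), Mnda (1.66 ± 0.19), Pydc3 (1.66 ± 0.32) and Pydc4, where the share was 4.81% and the median 1.61 against -0.01. Single samples were the lowest of their group for 9 of the 10 members. These were replicate 1 of CpG treated B6 and of AC treated B6, replicate 3 of control SjSS and replicate 2 of CpG treated SjSS. In CpG treated B6 the remaining member, Ifi202b, was at 0 counts in every sample. Without CpG treated SjSS replicate 2, 5 members were called higher with CpG in SjSS. Pydc4 lost its call when replicate 1 or 3 of control SjSS or of CpG treated SjSS was left out. The fit of the compared groups alone called 4 members higher. In these 4 responses, in the order AC in B6, AC in SjSS, CpG in B6 and CpG in SjSS, 2.04%, 5.83%, 6.88% and 4.45% of all genes were called lower. With no fold threshold, 7 members were higher and Aim2 lower with ACs in B6, where 20% and 18.3% of all genes were, and 8 members were higher and Aim2 lower with CpG in SjSS, where 27.8% and 26.4% were.

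Between strains the direction turned with treatment. In control BMDMs, Ifi202b was called higher in SjSS and 4 members lower, Ifi204, Mnda (-1.42 ± 0.19), Pydc4 (-6.47 ± 0.48) and Pyhin1 (-1.60 ± 0.18), with 1.3% of all genes called higher and 0.716% lower. With ACs, 7 members were called higher, Aim2 (1.77 ± 0.09), Ifi202b, Ifi203 (2.88 ± 0.14), Ifi204, Ifi205, Mndal (1.81 ± 0.13) and Pyhin1 (1.80 ± 0.17), and Pydc4 lower (-2.69 ± 0.24). There 6.24% of all genes were called higher and 2.69% lower. With CpG, Ifi202b was called higher and 5 members lower, Ifi205, Mnda (-2.52 ± 0.18), Pydc3, Pydc4 (-7.04 ± 0.34) and Pyhin1 (-2.20 ± 0.18), against 1.82% and 0.792% of all genes. Since Ifi202b passed the filter only through SjSS samples, its call adds nothing to these counts. The median log2 fold change of the other 9 was -1.28 in control, 1.77 after ACs and -2.20 after CpG, with -0.01, -0.05 and 0.01 over all genes. With no fold threshold, 2 members were higher in control SjSS BMDMs (9.04% of all genes) and 9 lower after CpG (9.57%). In the CpG treated samples all 9 of the other members were lower in every SjSS sample than in any B6 sample, as were 16.6% of all tested genes.

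**Figure D3:**
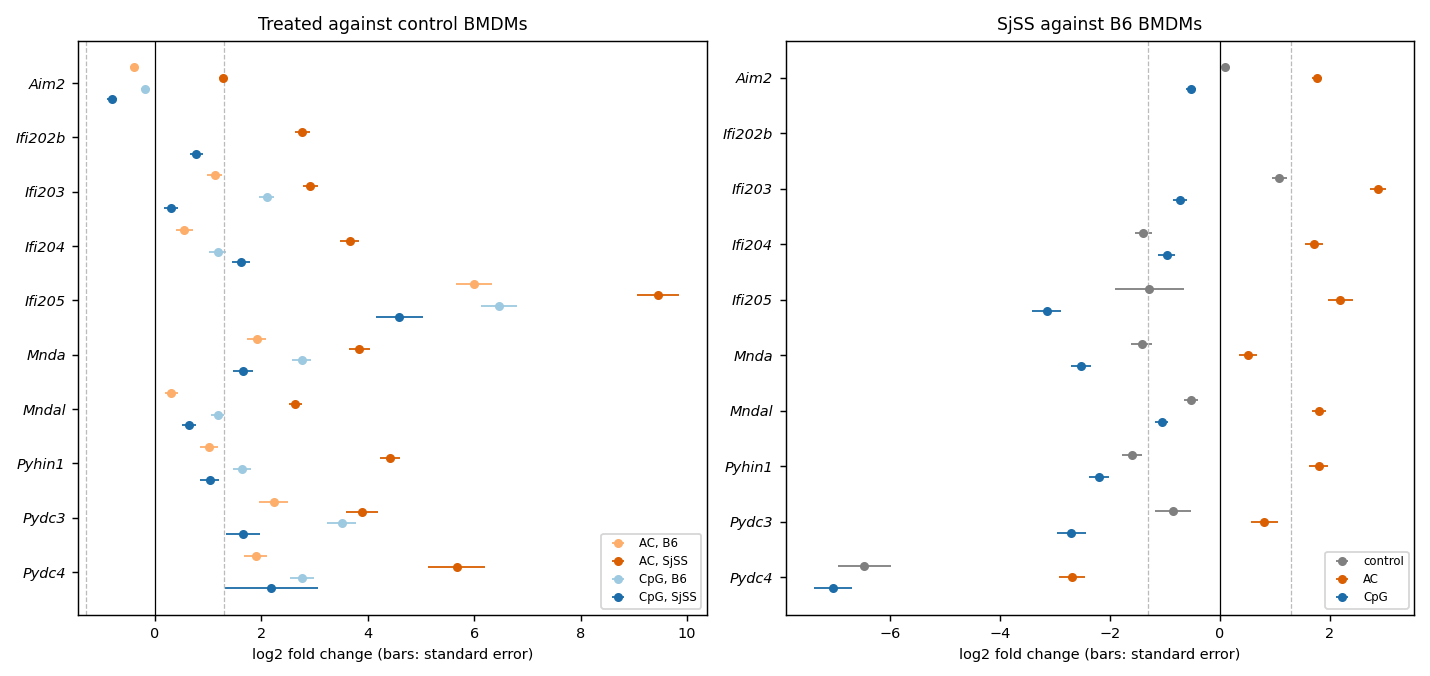
Points give log2 fold changes with their standard errors from the edgeR fit, for treated against control BMDMs on the left and for SjSS against B6 BMDMs on the right, with dashed lines at the threshold of 1.3. Comparisons of Ifi202b that involve B6 are not drawn since its counts there were at or near 0; the AC points of 8 members on the right lie above 0 and all CpG points below it.

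The test of the difference in response gave the same picture for ACs. The AC response was larger in SjSS for 9 members (4.76% of all genes were called higher), all except Ifi202b, which could not be compared. Besides those given above, the differences were 3.46 ± 0.65 for Ifi205, 1.93 ± 0.25 for Mnda, 2.32 ± 0.18 for Mndal, 1.66 ± 0.40 for Pydc3 and 3.78 ± 0.67 for Pydc4. For CpG, 2 members were called with a smaller response in SjSS, Ifi203 and Pydc3 (-1.85 ± 0.42, edgeR adjusted p = 0.0138), where 0.329% of all genes were called lower and 0.285% higher. With no fold threshold the number was 4, where 2.62% of all genes passed, and for ACs 2.77% of all genes were called with a smaller response. These tests and the strain differences above share samples and are not separate evidence.

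The genes around the cluster were checked for strain differences as well. Within 1 Mb of the outermost PYHIN rows the table holds 21 other genes, of which 15 were tested. In control BMDMs 6 of these were called lower in SjSS by edgeR (0.716% over all genes), all on the side of Aim2: Dusp23 (-2.21 ± 0.11), Slamf8 (-1.34 ± 0.20), Igsf9 (-2.39 ± 0.25), Vsig8 (-3.11 ± 0.51), Cfap45 (-3.11 ± 0.57) and Gm37125 (-2.37 ± 0.65). With ACs 2 were higher (6.24% over all genes), Gm18445 (3.62 ± 0.49) next to Ifi202b and Olfr433 (3.36 ± 0.65) next to Ifi205. With ACs 6 were lower (2.69% over all genes), and with CpG 7 were lower (0.792% over all genes). Gm18445 lies inside the cluster and shares windows with AI607873. Over the AC treated SjSS and B6 groups it had 157 and 14 counts, and Olfr433 40 and 4. In control SjSS BMDMs Gm37125 had 8 counts and Vsig8 and Cfap45 17 each, so the sizes of these differences are uncertain. Strain differences at this end of chromosome 1 were thus not limited to the PYHIN members.

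**Figure D4:**
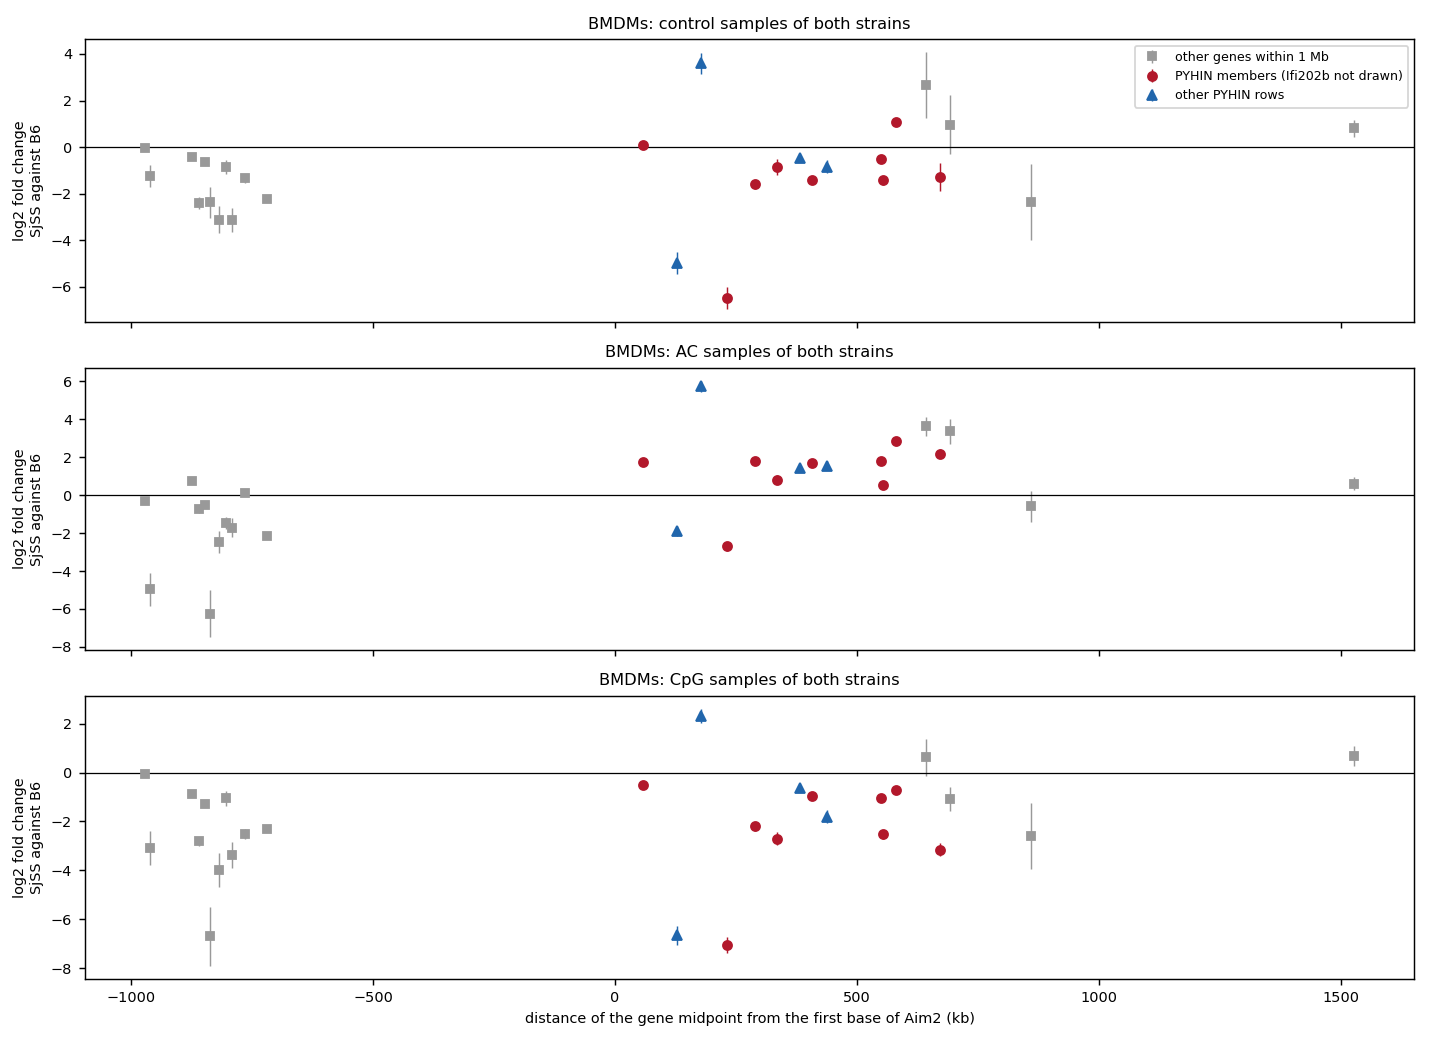
Log2 fold changes of SjSS against B6 BMDMs, with standard errors, are plotted against the distance in kb of each gene's midpoint from the first base of Aim2, for control, AC and CpG samples from top to bottom. Red circles are members, blue triangles other PYHIN rows and grey squares the 15 other genes; most members lie below 0 in the top and bottom panels and above it in the middle one.

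Genes of inflammasomes and of interferon signalling were counted in the same comparisons, from lists of genes known for these roles. The inflammasome list includes Nlrp3, a sensor other than AIM2, which was called higher with ACs and with CpG in both strains. Over all genes, 2.43%, 7.09%, 5.86% and 4.81% were called higher with ACs in B6, ACs in SjSS, CpG in B6 and CpG in SjSS, 4.76% had a larger AC response in SjSS and 0.329% a smaller CpG response. Of 7 inflammasome genes, 2 were called higher with ACs in B6 and 4 in SjSS, and 3 in each strain with CpG, with median log2 fold changes of 0.29, 1.54, 0.58 and 0.76 in that order. The AC response was larger in SjSS for 3, Il1b (2.76 ± 0.33), Il18 (2.06 ± 0.26) and Nlrp3 (1.81 ± 0.12). ACs raised Casp1, the protease of the inflammasome, in SjSS (1.54 ± 0.07), whereas Pycard, which encodes ASC, was at 0.06 ± 0.08. The list for the route from cytosolic DNA to interferon had 12 tested genes, some of which, such as Trex1, limit that route. Of the 12, 3 were called higher with ACs in B6 and 7 in SjSS, with medians of 0.51 and 1.75, and 4 and 2 with CpG. Tmem173 (-0.37 ± 0.08, edgeR adjusted p = 0.000898) and Irf3 (-0.39 ± 0.07, edgeR adjusted p = 7.64e-05) were lower with ACs in SjSS, under the fold for a call. With ACs, Ifnb1, which encodes interferon beta, was at 2.44 ± 0.82 in B6 and 5.61 ± 0.52 in SjSS, and the difference of 3.17 ± 1.3 did not pass the test (edgeR adjusted p = 0.064). Mb21d1, the DNA sensor cGAS, Trex1, a DNase that limits it, and Zbp1, a further nucleic acid sensor, had larger AC responses in SjSS by 2.02 ± 0.14, 1.5 ± 0.24 and 2.22 ± 0.28. Of 18 interferon signalling and target genes, 9 were called higher with ACs in B6 and 14 in SjSS, with medians of 1.18 and 3.81, and 12 and 9 with CpG, with medians of 2.16 and 1.40. The AC response was larger in SjSS for 12 of the 18, among them Gbp2 (4.75 ± 0.20) and Ifit2 (3.55 ± 0.35), and the CpG response smaller for 4, Ifit1, Ifit3, Rsad2 and Usp18 (-2.07 ± 0.30). In control BMDMs 1 of the 18 was called, Usp18 (1.54 ± 0.23, higher in SjSS), and the median strain difference of the list was 0.64. Others were higher below the fold required for a call, such as Ifit3 (1.22 ± 0.24, edgeR adjusted p = 0.00153) and Ifit1 (1.19 ± 0.24, edgeR adjusted p = 0.00179).

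The genes nearest to each member over the 6 group means of log2 CPM, outside the family, were found by Euclidean distance between centred profiles. Lrp4 and Gcnt2 were nearest to Aim2, at 0.25 and 0.30, where the median over all tested genes was 1.81. Dtx3l and Parp9, neighbours of each other on chromosome 16, were nearest to Ifi203 at 0.68 and 0.71, against a median of 3.14. Maff and Casp4 were nearest to Ifi204 at 0.64 and 0.78, and Gca and Gypc to Mndal at 0.54 and 0.56. For Mnda the nearest were Slamf8 and Atp2b4, at 1.34 and 1.40, and its closest family member was Pydc3 at 0.57. Pyhin1 had G530011O06Rik and Ccl2 at 1.11 and 1.24, and Pydc3 had Gm16685 and Gfi1 at 1.17 and 1.27. For Pydc4, Ifi205 and Ifi202b the nearest were further away, Gm16867 at 3.03, Acod1 at 2.79 and Hist1h2al at 5.64. Their medians over all tested genes were larger too, at 7.59, 8.40 and 15.18. Profiles were centred but not scaled, so distances grow with the size of a gene's changes. The distance to Hist1h2al rests on counts of Ifi202b at or near 0 in B6. These distances describe 6 points each and were not tested.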

How the data were processed

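RNA-seq of 18 BMDM samples was analysed. The authors aligned paired reads to mm10 (STAR) and counted them per gene (Partek E/M). What they deposited is 1 table of 20615 genes with estimated counts that were left without normalization. In this table, 26.4% of values were not whole (tolerance 0.05), so the estimated counts were rounded. The totals per sample were 30688336 to 57139662, and intervals cover counting error only. Tests used edgeR 4.0.16 in R 4.3.3: filterByExpr left 15789 genes, libraries were scaled by TMM, and 1 quasi-likelihood model with 6 group means was fitted to all 18 samples. Benjamini-Hochberg adjustment ran over all tested genes within each of 9 comparisons. Calls needed a log2 fold change beyond 1.3 in either direction at an adjusted p below 0.05, the limits in the study's methods. The legend of the study's volcano plots gives a fold change of 1.3 and P below 0.05 instead. Standard errors are the log2 fold change over the square root of F. CPM are TMM scaled. Alternatives were DESeq2 1.42.0, its size factors within edgeR, no filter, no threshold on the fold, models of only the groups compared, a replicate block, leaving out each sample, other lengths and all PYHIN rows summed. The script was tested on simulated data.

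Members, lists and the naming rule were chosen with earlier results of these data known. The rule names every member and other PYHIN row, called neighbours within 1 Mb, at most 6 genes of each pathway list, and the nearest profiles of each member. Transcript windows came from GENCODE M21 and promoters from RefSeq, both on GRCm38. Protein sequences were not used here.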

Additional observations from a re-analysis of the deposited data

Results flagged for a closer look

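The response to ACs differed between the strains by a test of the difference itself (edgeR, interaction of strain and AC, log2 scale) in 9 of the 10 members: Aim2 by 1.68, Pydc4 by 3.78, Pyhin1 by 3.40, Pydc3 by 1.66, Ifi204 by 3.11, Mndal by 2.32, Mnda by 1.93, Ifi203 by 1.80 and Ifi205 by 3.46, each larger in SjSS BMDMs. The response to CpG differed in Pydc3 by -1.85 and in Ifi203 by -1.80, both smaller in SjSS BMDMs. Pydc4 in control SjSS BMDMs rested on 7 counts and Ifi205 on 55, so that the size of their differences is less certain than those of Aim2 and Ifi204, with 4409 and 6737 counts in the same group.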

How the results depend on the processing

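The counts of called members kept within 1.5 times their value under DESeq2, its size factors, no filter on low counts and the fits of the compared groups alone. Without a fold threshold, 7 members were higher and 1 lower with ACs in B6, 8 higher and 1 lower with CpG in SjSS, 2 higher in control SjSS, 9 lower in CpG treated SjSS and 4 with a smaller CpG response in SjSS BMDMs. With all 14 PYHIN rows, the summed levels were 570, 1037 and 1505 CPM in control, AC treated and CpG treated B6 and 501, 4061 and 788 CPM in SjSS BMDMs, in the same order of groups. Leaving out 1 sample gave 9 to 10 members higher with ACs in SjSS, 4 to 5 higher with CpG in SjSS and 3 to 4 lower in control SjSS, and the other counts did not change. Without control B6 replicate 2, which held the only control B6 count of Ifi202b, the fitted log2 changes of Ifi202b turned to 0.00 for CpG in B6 (-2.19 to 0.00 over the samples left out) and to -0.71 for the strain by AC interaction (-0.71 to 2.17), all from counts at the floor that carry no direction.

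Samples of the same number and strain had correlations of 0.02 to 0.26 in their deviations from group means, with 8 of 18 pairs over 0.1. Samples of other numbers in the same strain had -0.25 to 0.07. Within the strain, 16 of 18 samples matched best with their own number. The main fit did not use the numbers, so it may leave out a pairing of samples within a strain. With the replicate number as a block, 89 of 90 member results kept their call, and the CpG interaction of Ifi205 passed the threshold at -1.85 (edgeR adjusted p = 0.048). For the strain differences that block joined equal numbers across the strains, whose correlations were only -0.09 to 0.06. Depth limits Ifi202b in B6 and Pydc4 in SjSS BMDMs, and read sharing limits Mnda.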
